A study of Mus musculus with 43 samples.

Results

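Ponatinib and pyrvinium pamoate were set against each other directly in mouse embryonic fibroblasts (MEF), connective-tissue cells grown from mouse embryos. The comparison took 6 of the 43 RNA libraries of the study, chosen by their treatment labels. Of these, 3 libraries came from cells given 1 µM ponatinib and 3 from cells given 1 µM pyrvinium pamoate. Both treatments lasted 24 h, and the cells of both groups were labelled wild type. The dose and the time were thus the same for both drugs, and in these libraries neither was given at a second dose or time. RNA with a poly(A) tail was sequenced. The 3 libraries of wild-type cells given the solvent DMSO for 24 h entered no comparison, and their levels are given only to place the drug levels. The labels do not say that the libraries of a group came from separate cultures, so the p-values speak of the spread among these libraries and not of a wider population of cultures.

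Ponatinib is a kinase inhibitor made against BCR-ABL that also blocks receptors for fibroblast, platelet-derived and vascular growth factors and kinases of the SRC family. Fibroblasts receive signals to divide and to lay down matrix through several of these receptors. Pyrvinium is a cyanine dye long used against pinworm. It gathers in mitochondria, and it has been reported to reduce respiration, to lower Wnt signalling and to block the unfolded protein response of cells without glucose. Cells short of amino acids, with unfolded protein or with failing mitochondria phosphorylate the initiation factor eIF2, which raises translation of the transcription factor ATF4. ATF4 then activates genes of amino acid supply and, with CHOP, of cell death.

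Levels were given in TPM, a unit that corrects for the length of each transcript and the size of each library, so levels can be set beside each other between genes. Of the 25080 genes listed, 12073 had a mean of at least 1 TPM over the 6 libraries and were tested. Differences are on the scale log2(TPM + 1), ponatinib minus pyrvinium, so that a negative value means a higher level with pyrvinium. This scale understates the difference of genes with low levels. A gene was called at an adjusted p under 0.05 in limma's moderated test with Benjamini-Hochberg adjustment over all genes tested. Folds are ratios of group means in TPM.

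The drugs gave very different RNA profiles. Of the genes tested, 9126 were called, which is 75.6%. Of these, 5616 (46.5% of the genes tested) were higher with ponatinib and 3510 (29.1%) were higher with pyrvinium. A log2 difference of at least 1 in either direction was found for 1775 called genes, which is 14.7% of the genes tested. Of these larger differences, 1242 were higher with ponatinib and 533 with pyrvinium on the deposited scale. The same counts were 900 to 971 with ponatinib and 719 to 811 with pyrvinium after 3 other scalings or removal of a trend with transcript length. The libraries of the groups did not overlap for 9599 genes, or 79.5%. The split by direction depended on the scaling: 61.5% of the calls were higher with ponatinib on the deposited scale, and 48.7% to 50.2% after those steps. The median log2 difference over all genes tested was 0.14 on the deposited scale and between −0.018 and 0.00086 after them. The counts for gene lists below on the deposited scale are therefore to be read against the 46.5% and 29.1% of all genes and against the median of 0.14. After those steps 38.2% to 39.7% of all genes were called higher with ponatinib and 38.5% to 40.2% with pyrvinium. List counts given after the other scalings are to be read against these shares.

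**Figure D1:**
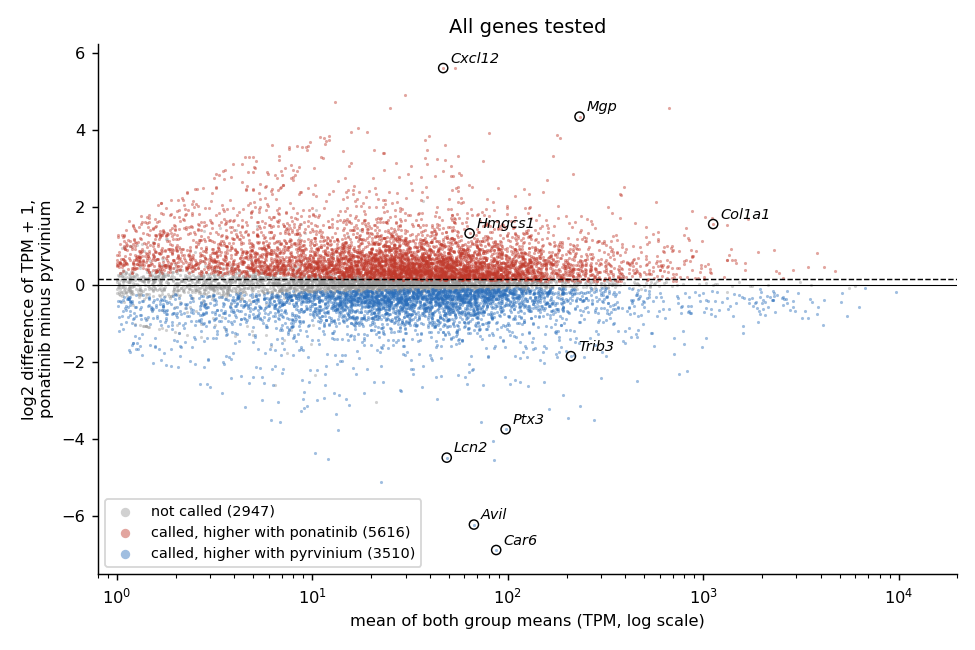
Each point is 1 of the 12073 genes tested, with the mean of both group means in TPM on a log scale across and the log2 difference of TPM + 1, ponatinib minus pyrvinium, upward. Colour marks the call, the dashed line the median of 0.14, and 9 genes of the text are ringed. The called genes lie on both sides of 0 at every level, and the ringed genes include Cxcl12 at 5.61 and Car6 at −6.87.

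The libraries fell apart by drug. The first principal component of the 6 libraries held 87.8% of the variance and separated the groups. Across the genes tested, the correlation of log2 levels was 0.990 to 0.994 between libraries of 1 group and 0.917 to 0.926 between groups. Pyrvinium library 3 stood apart from the other 2 pyrvinium libraries on the second component, which held 4.64% of the variance. Without it 9602 genes were called, 5626 of them higher with ponatinib and 3976 with pyrvinium. All 195 genes chosen by the naming rule then kept their direction and call. The 45S precursor Rn45s, whose transcripts carry no poly(A) tail, was at 57.9, 61.4 and 58.4 TPM with ponatinib and at 99.4, 171.6 and 213.1 TPM with pyrvinium. The part of Rn45s in the results was not tested. The 50 most abundant genes took 16.1% to 16.5% of the summed TPM with ponatinib and 19.3% to 20.5% with pyrvinium. The summed level of 12 fibroblast markers was 4000 to 4218 TPM with ponatinib, 1791 to 1899 TPM with pyrvinium and 5982 to 6010 TPM with DMSO. Fn1, on this list, was higher with pyrvinium, as given below. Lists for macrophage, endothelial, epithelial, adipocyte, neural and skeletal muscle cells had summed levels of at most 84.4 TPM in any of the 6 libraries. In bulk RNA, fewer cells of a type and less RNA per cell cannot be told apart.

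**Figure D2:**
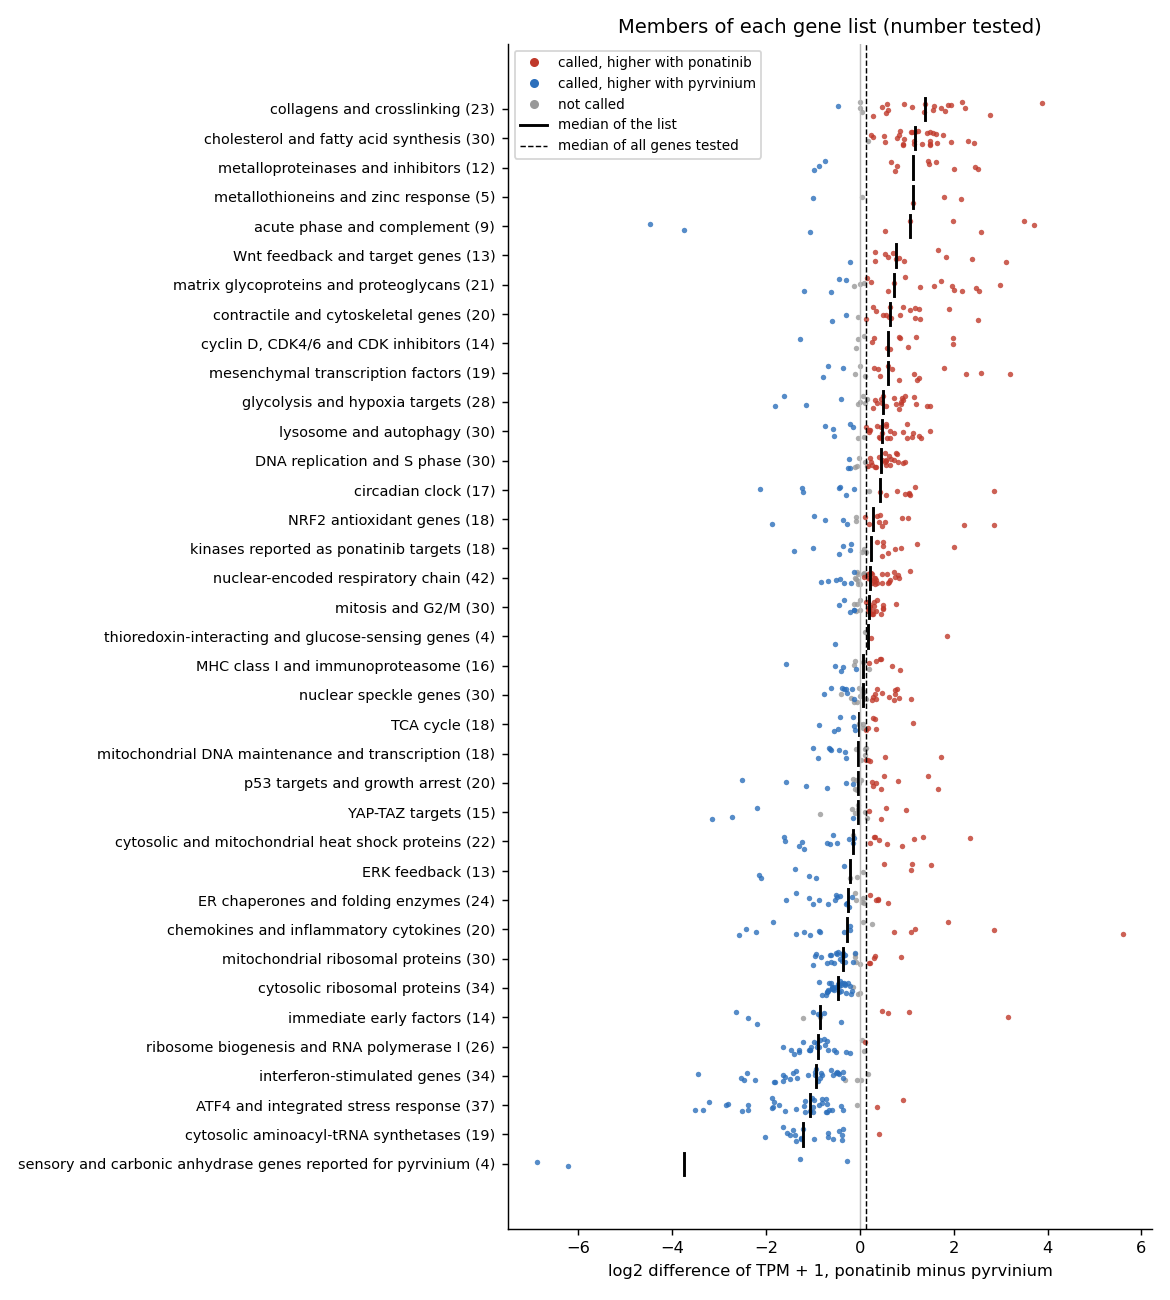
Members of the gene lists are shown as points at their log2 difference of TPM + 1, ponatinib minus pyrvinium, with the number tested in brackets. Cell type markers and a list without any member tested are left out. Colour marks the call, the black bar the median of a list and the dashed line the median of all genes tested, 0.14. Collagens and sterol synthesis lie at the ponatinib end, and aminoacyl-tRNA synthetases, ATF4 targets and interferon-stimulated genes at the pyrvinium end.

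Genes of the integrated stress response were nearly all higher with pyrvinium. Of 37 ATF4 and stress response genes tested, 2 were higher with ponatinib, 34 were higher with pyrvinium and 1 was not called (median log2 difference −1.06). Of the 34, 20 were at least 2-fold higher on the log2 scale. For 32 of the 37 the DMSO mean lay below the means of both drugs, against 4255 of the 12073 genes tested. Several promoters of this list hold the letters TGATGNAA on either strand, the composite site bound by CHOP and ATF4 together. These letters stood within 250 bases before to 50 bases after the start in 10 of the 33 members with a promoter in the RefSeq table, or 30.3%. Over the 9587 genes tested with a promoter the share was 2.14%, and over all 27025 promoters it was 4.06%. The 250 bases before the start of 3 of these genes are printed 5′ to 3′ on the gene's strand (RefSeq, GRCm38.p6), with the matching letters in capitals, because their levels are given next.
Asns, chr6:7693210-7693459, minus strand: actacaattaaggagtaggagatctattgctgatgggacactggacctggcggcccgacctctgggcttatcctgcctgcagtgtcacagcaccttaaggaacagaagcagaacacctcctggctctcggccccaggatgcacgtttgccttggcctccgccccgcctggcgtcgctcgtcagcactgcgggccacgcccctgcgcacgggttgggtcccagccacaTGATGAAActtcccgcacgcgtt
Atf3, chr1:191183334-191183583, minus strand: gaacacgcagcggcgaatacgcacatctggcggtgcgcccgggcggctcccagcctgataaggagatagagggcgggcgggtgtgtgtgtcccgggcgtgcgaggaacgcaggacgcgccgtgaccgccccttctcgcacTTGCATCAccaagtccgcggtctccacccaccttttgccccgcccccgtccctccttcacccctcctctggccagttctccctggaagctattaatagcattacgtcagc
Slc7a11, chr3:50443614-50443863, minus strand: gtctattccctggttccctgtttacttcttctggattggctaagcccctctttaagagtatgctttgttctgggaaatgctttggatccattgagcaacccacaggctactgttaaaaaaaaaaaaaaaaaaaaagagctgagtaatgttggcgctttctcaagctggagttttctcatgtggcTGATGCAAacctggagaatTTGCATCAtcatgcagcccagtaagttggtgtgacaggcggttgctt
A match describes the letters only and is not a measured binding site. In Asns the match begins 23 bases before the start, and Slc7a11 holds 2 matches.

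Atf4 itself, the factor at the centre of this response, was at 789, 757 and 766 TPM with ponatinib and 1291, 1258 and 1233 TPM with pyrvinium. The groups did not overlap (log2 difference −0.71, SE 0.032, adjusted p = 3.27e-07), and DMSO was below both at 538 to 555 TPM. Ddit3, which encodes CHOP, the partner of ATF4 in promoting cell death, was at 139.8, 137 and 131 TPM with ponatinib and 772, 733 and 832 TPM with pyrvinium. The lowest pyrvinium library was far above the highest ponatinib library, and the pyrvinium mean was 5.73-fold the ponatinib mean (log2 difference −2.51, SE 0.050, adjusted p = 1.11e-08). Ponatinib in turn stood above DMSO, where Ddit3 was at 48.2 to 54.4 TPM. Trib3, a pseudokinase that restrains ATF4 and AKT signalling, was at 95.1, 88.9 and 88.1 TPM with ponatinib and 347, 339.9 and 305 TPM with pyrvinium. Its 3 groups ran in the same order, with DMSO at 24.8 to 28.9 TPM (log2 difference −1.85, SE 0.056, adjusted p = 5.00e-08). Asns, the enzyme that makes asparagine, was at 243, 240.1 and 235 TPM with ponatinib and 617, 589.8 and 631 TPM with pyrvinium, again without overlap (log2 difference −1.35, SE 0.035, adjusted p = 2.68e-08). Its DMSO level was 142 to 148 TPM.

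Larger differences were found in other members. Ppp1r15a, which encodes GADD34, the subunit that directs the removal of phosphate from eIF2, was at 509, 506 and 515 TPM with pyrvinium and 45.3, 43.7 and 41.95 TPM with ponatinib. The 3 values within each group lay close together, and the means differed 11.7-fold (log2 difference −3.52, SE 0.037, adjusted p = 1.29e-09). With ponatinib it was somewhat above the DMSO level of 34.4 to 34.8 TPM. Gdf15, a secreted stress hormone, was at 24.1, 24.9 and 25.4 TPM with pyrvinium and 1.57, 1.57 and 1.48 TPM with ponatinib. It was 16.1-fold higher with pyrvinium (log2 difference −3.35, SE 0.069, adjusted p = 1.29e-08) and low in DMSO, at 0.533 to 1.01 TPM. Cth, the enzyme that makes cysteine from cystathionine, was 9.54-fold higher with pyrvinium, at 30.7 ± 0.203 TPM with ponatinib and 293 ± 13.7 TPM with pyrvinium (SD, n = 3 each; log2 difference −3.21, adjusted p = 3.28e-09). Atf3, another stress-induced factor, was at 97.9, 101 and 109 TPM with pyrvinium and 18.7, 18.3 and 19.6 TPM with ponatinib. The ponatinib libraries were slightly below DMSO, at 20.9 to 24.2 TPM, and the pyrvinium libraries well above it (log2 difference −2.38, SE 0.055, adjusted p = 1.60e-08). Slc7a11, the transporter that brings in cystine, was at 16.8, 17.5 and 12.2 TPM with pyrvinium and 3.35, 3.47 and 3.58 TPM with ponatinib, with pyrvinium library 3 the lowest of its group but still above every ponatinib library (log2 difference −1.87, SE 0.13, adjusted p = 3.45e-06). Cdsn, known from the outer skin as corneodesmosin, had a log2 difference of −2.86. Only 2 members went the other way, the larger being Ddit4, an inhibitor of mTOR signalling, at 117 ± 0.979 TPM with ponatinib and 61.9 ± 8.11 TPM with pyrvinium (log2 difference 0.91, adjusted p = 2.19e-05).

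The cytosolic aminoacyl-tRNA synthetases, which load amino acids onto tRNAs and are known targets of ATF4, were also higher with pyrvinium. Of 19 tested, 1 was higher with ponatinib, 18 were higher with pyrvinium and 0 were not called (median log2 difference −1.21). TGATGNAA stood in 5 of the 12 with a promoter, or 41.7%, namely in those of Aars, Gars, Iars, Tars and Yars. Wars, the tryptophan enzyme, was at 59.2, 60.6 and 59.6 TPM with ponatinib and 248, 258 and 232 TPM with pyrvinium. The ponatinib values were somewhat above DMSO, at 46.3 to 48.3 TPM, and the pyrvinium values were 4.11-fold higher on average (log2 difference −2.02, SE 0.045, adjusted p = 1.43e-08). Lars, Eprs and Rars, for leucine, for glutamate with proline, and for arginine, had log2 differences of −1.63, −1.55 and −1.49. Qars, the glutamine enzyme, was the 1 member higher with ponatinib, at 105 ± 2.804 TPM with ponatinib and 79.1 ± 2.49 TPM with pyrvinium (log2 difference 0.41, adjusted p = 3.05e-05).

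**Figure D3:**
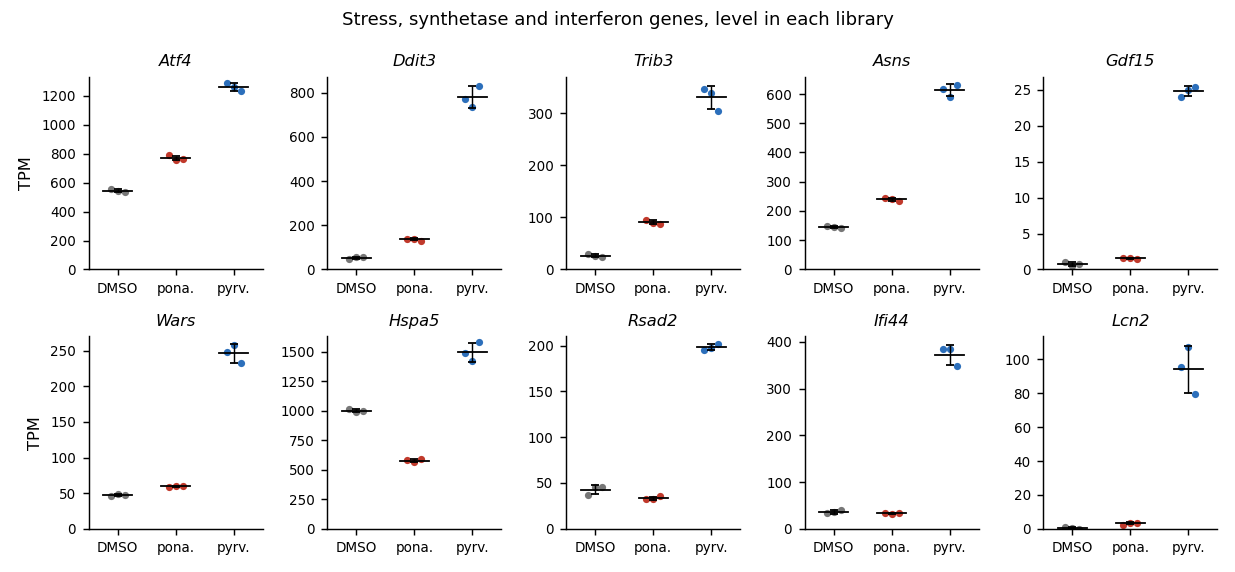
Levels in TPM of 10 genes in each of 3 libraries per group (points), with the group mean and SD (bars), for DMSO, ponatinib and pyrvinium. In all 10 panels the pyrvinium libraries lie above every ponatinib library. For Hspa5, and by less for Rsad2, every ponatinib library lies below every DMSO library.

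Chaperones of the endoplasmic reticulum (ER) and heat shock proteins did not move as 1 group. Of 24 ER chaperones and folding enzymes, 5 were higher with ponatinib, 14 were higher with pyrvinium and 5 were not called (median log2 difference −0.26, with 1 further member under the level filter). Hspa5, the main ER chaperone BiP, was at 1490.2, 1419 and 1578 TPM with pyrvinium and 579, 565 and 589 TPM with ponatinib. DMSO lay between the drugs, at 991 to 1013 TPM, and the drugs did not overlap (log2 difference −1.37, SE 0.042, adjusted p = 5.45e-08). Ero1l, an oxidase that drives disulfide formation, was at 196, 186 and 168 TPM with pyrvinium and 60.7, 54.3 and 67.5 TPM with ponatinib (log2 difference −1.58, SE 0.085, adjusted p = 8.48e-07). Hyou1, a helper of BiP, and Xbp1, the transcription factor of the unfolded protein response, had log2 differences of −1.08 and −1.003. P4hb, a disulfide isomerase, was the member of largest difference in the other direction (963 ± 28.8 TPM with ponatinib and 635 ± 37.4 TPM with pyrvinium, log2 difference 0.601, adjusted p = 6.78e-06).

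Of 22 cytosolic and mitochondrial heat shock proteins, 9 were higher with ponatinib, 12 were higher with pyrvinium and 1 was not called (median log2 difference −0.15). The members of largest difference on the pyrvinium side were chaperones of the mitochondrial matrix. Hspa9, which draws proteins into mitochondria, was at 1489, 1415 and 1538 TPM with pyrvinium and 488, 482 and 481 TPM with ponatinib. The pyrvinium mean was 3.06-fold the ponatinib mean (log2 difference −1.61, SE 0.036, adjusted p = 1.49e-08), and DMSO was lowest, at 329 to 346 TPM. Hspd1, the folding chamber HSP60, had a log2 difference of −1.596. The largest difference in the other direction was in the cytosol. Cryab, a small heat shock protein of muscle and lens, was at 219, 219 and 210.4 TPM with ponatinib and 43.996, 40.04 and 41.4 TPM with pyrvinium. Ponatinib was above DMSO, at 95.2 to 109.9 TPM, and pyrvinium below it (log2 difference 2.34, SE 0.044, adjusted p = 1.11e-08). Hspa1a, the inducible HSP70, had a log2 difference of 1.35, but it shares nearly all of its sequence with Hspa1b, so its own level is uncertain.

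Transcripts for sterol and fatty acid synthesis were lower with pyrvinium than with ponatinib almost throughout. Cells raise the enzymes of this synthesis through SREBP factors when sterol in the ER is low. Of 30 genes tested, 29 were higher with ponatinib, 0 were higher with pyrvinium and 1 was not called (median log2 difference 1.17, with 1 further member under the level filter), and 19 of the 29 were at least 2-fold higher on the log2 scale. The DMSO mean lay above both drugs for all 30, against 2857 of the 12073 genes tested. Hmgcs1, which makes the HMG-CoA used by the pathway, was at 89.8, 91.3 and 93.99 TPM with ponatinib and 37.2, 33.8 and 36.8 TPM with pyrvinium. The groups did not overlap, and the ponatinib mean was 2.55-fold the pyrvinium mean (log2 difference 1.33, SE 0.049, adjusted p = 1.23e-07). Both drugs were well below DMSO, at 320.1 to 349 TPM. The sterol element TCACNCCAC, searched on both strands, was found in the promoter of Hmgcs1 alone of the 21 members with a promoter, or 4.76%, against 1.01% over the genes tested, so these letters set the list little apart. The 250 bases before its start (RefSeq, GRCm38.p6, 5′ to 3′ on the gene's strand) show that match in capitals.
Hmgcs1, chr13:119690101-119690350, plus strand: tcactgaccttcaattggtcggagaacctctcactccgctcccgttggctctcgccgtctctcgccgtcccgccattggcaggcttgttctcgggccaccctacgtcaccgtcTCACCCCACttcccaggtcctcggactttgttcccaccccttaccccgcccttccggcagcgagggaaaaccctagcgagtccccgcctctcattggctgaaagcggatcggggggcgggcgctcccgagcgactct

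Insig1, which holds SREBP in the ER when sterol is plentiful, was at 94.6, 92.3 and 95.1 TPM with ponatinib and 16.3, 14.04 and 20.2 TPM with pyrvinium. It had the largest difference among the list's members (log2 difference 2.43, SE 0.11, adjusted p = 3.42e-07), and DMSO was at 249.6 to 265 TPM. Scd2, a fatty acid desaturase, was at 624, 632 and 637 TPM with ponatinib and 139.7, 126 and 114 TPM with pyrvinium (log2 difference 2.31, SE 0.065, adjusted p = 3.90e-08).

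**Figure D4:**
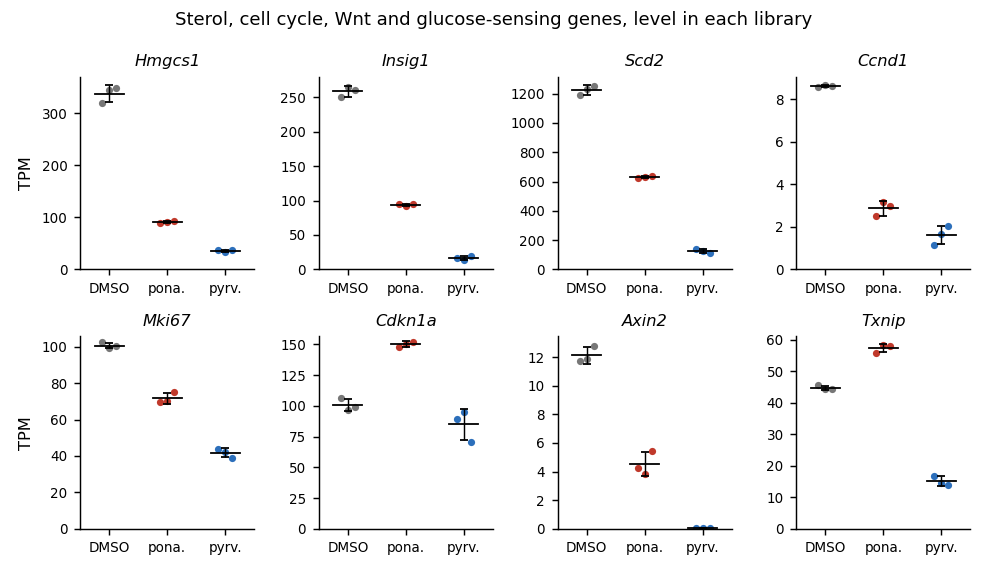
Levels in TPM of 8 genes in each of 3 libraries per group (points), with the group mean and SD (bars), for DMSO, ponatinib and pyrvinium. Hmgcs1, Insig1 and Scd2 are highest with DMSO, then ponatinib, then pyrvinium, while Cdkn1a and Txnip are highest with ponatinib.

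Transcripts for making ribosomes were higher with pyrvinium. Of 34 cytosolic ribosomal protein genes, 0 were higher with ponatinib, 31 were higher with pyrvinium and 3 were not called (median log2 difference −0.46). After quantile normalization 2 were called higher with ponatinib. These genes together took 6.41% to 6.66% of the summed TPM with ponatinib, 9.14% to 9.94% with pyrvinium and 6.29% to 6.46% with DMSO. Many have near-identical pseudogenes, so the level of a single member is uncertain. Rps2, a protein of the small subunit, was at 6999, 6533 and 7234 TPM with pyrvinium and 4069, 3889.9 and 3849 TPM with ponatinib (log2 difference −0.81, SE 0.044, adjusted p = 8.96e-07). Rps23 and Rpl4 had log2 differences of −0.86 and −0.72. Of 26 genes of ribosome biogenesis and RNA polymerase I, 1 was higher with ponatinib, 23 were higher with pyrvinium and 2 were not called (median log2 difference −0.88). Mybbp1a, a nucleolar protein, was at 195, 201 and 231 TPM with pyrvinium and 64.5, 68.3 and 65.1 TPM with ponatinib. DMSO lay a little above ponatinib, at 77.4 to 85.6 TPM, and pyrvinium was 3.17-fold higher than ponatinib (log2 difference −1.64, SE 0.065, adjusted p = 1.72e-07). Gnl3, the nucleolar GTPase nucleostemin, was at 137, 137 and 147 TPM with pyrvinium and 47.6, 50.8 and 51.8 TPM with ponatinib (log2 difference −1.47, SE 0.049, adjusted p = 7.35e-08). Rrp12 and Heatr1, factors that process the precursor of ribosomal RNA, had log2 differences of −1.398 and −1.303. Ubtf, which activates RNA polymerase I, was the 1 member called higher with ponatinib, by a small difference (log2 difference 0.101, SE 0.035, adjusted p = 0.0279), whose sign turned under the other scalings. Without pyrvinium library 1, 2 members were called higher with ponatinib.

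Genes for mitochondrial ribosomes were mostly higher with pyrvinium. Of 30 mitochondrial ribosomal proteins, 5 were higher with ponatinib, 21 were higher with pyrvinium and 4 were not called (median log2 difference −0.37). With the other scalings 2 to 4 were higher with ponatinib and 25 with pyrvinium. Mrps18b was at 117, 114 and 117 TPM with pyrvinium and 56.8, 57.7 and 59.7 TPM with ponatinib, without overlap (log2 difference −0.99, SE 0.037, adjusted p = 1.45e-07). Mrps30 and Mrpl1 had log2 differences of −0.95 and −0.94, and Mrps12 went the other way at 0.87. Of 42 nuclear-encoded subunits of the respiratory chain, 25 were higher with ponatinib, 7 were higher with pyrvinium and 10 were not called (median log2 difference 0.21). After the other scalings 15 to 21 were higher with ponatinib and 12 to 15 with pyrvinium, so how far the list leaned to ponatinib depended on the scaling. Cox7a2, a subunit of cytochrome oxidase, was at 437, 418 and 418 TPM with ponatinib and 201, 203 and 197 TPM with pyrvinium (log2 difference 1.08, SE 0.033, adjusted p = 5.16e-08), with DMSO at 397 to 405 TPM. Sdhd and Cox7b, subunits of complexes II and IV, had log2 differences of 0.84 and 0.81. Cycs, the electron carrier cytochrome c, was at 109, 107 and 113 TPM with pyrvinium and 61.7, 60.99 and 60.8 TPM with ponatinib (log2 difference −0.83, SE 0.037, adjusted p = 3.17e-07), where ponatinib was below and pyrvinium slightly above the DMSO level of 100.2 to 104 TPM. Genes encoded by the mitochondrial genome were not analysed here.

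Of 18 genes of mitochondrial DNA maintenance and transcription, 5 were higher with ponatinib, 8 were higher with pyrvinium and 5 were not called (median log2 difference −0.031). Under the other scalings 2 to 3 were higher with ponatinib and 8 to 9 with pyrvinium. The count of 5 was 3 without ponatinib library 2 and 2 without ponatinib library 3. Ppargc1a, a coactivator that raises mitochondrial genes, was at 2.65, 2.97 and 2.73 TPM with ponatinib and 0.169, 0.205 and 0.07198 TPM with pyrvinium. The ponatinib libraries stood above both other groups, with DMSO at 0.0928 to 0.138 TPM (log2 difference 1.72, SE 0.11, adjusted p = 2.11e-06). Tfam, the packaging factor of mitochondrial DNA, was at 37.4, 38.1 and 33.9 TPM with pyrvinium and 28.4, 29.5 and 29.4 TPM with ponatinib, a small difference (log2 difference −0.31, adjusted p = 0.00109). Top1mt, Tefm and Mterf3, a topoisomerase, an elongation factor and a transcription regulator of mitochondria, had log2 differences of −1.002, −0.89 and −0.67. Of 18 genes of the TCA cycle, 6 were higher with ponatinib, 7 were higher with pyrvinium and 5 were not called (median log2 difference −0.013). After the other scalings 3 were higher with ponatinib and 9 to 10 with pyrvinium. Idh2, the mitochondrial isocitrate dehydrogenase that yields NADPH, was 2.203-fold higher with ponatinib (log2 difference 1.14, adjusted p = 1.16e-06), and Dld, Suclg2 and Dlat had differences of −0.87, −0.55 and −0.46.

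Interferon-stimulated genes, the antiviral genes switched on by STAT factors, formed a further group on the pyrvinium side. Of 34 tested, 0 were higher with ponatinib, 30 were higher with pyrvinium and 4 were not called (median log2 difference −0.94), and 15 of the 30 were at least 2-fold higher on the log2 scale. Without pyrvinium library 2, 1 member was called higher with ponatinib. For 23 of the 34 the DMSO mean lay between the drug means, against 4961 of the 12073 genes tested. The letters GAAANNGAA on either strand, a form of the interferon-stimulated response element, stood in 15 of the 24 members with a promoter, or 62.5%, against 6.91% over the genes tested and 8.57% over all promoters. The promoter of Rsad2, 250 bases before the start (RefSeq, GRCm38.p6, 5′ to 3′ on the gene's strand), is printed with its match in capitals.
Rsad2, chr12:26456453-26456702, minus strand: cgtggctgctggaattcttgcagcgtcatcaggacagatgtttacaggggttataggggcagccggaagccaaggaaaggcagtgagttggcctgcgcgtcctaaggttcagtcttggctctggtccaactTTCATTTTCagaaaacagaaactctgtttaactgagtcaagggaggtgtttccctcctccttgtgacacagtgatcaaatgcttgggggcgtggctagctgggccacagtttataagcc

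Rsad2, which encodes the antiviral enzyme viperin, was at 195, 198 and 201 TPM with pyrvinium and 32.6, 32.6 and 35.5 TPM with ponatinib. Ponatinib and DMSO lay close together, DMSO at 36.9 to 45.6 TPM, and pyrvinium was 5.899-fold higher than ponatinib (log2 difference −2.53, SE 0.045, adjusted p = 8.21e-09). Ifi44, an interferon-induced protein, was at 384, 384 and 348 TPM with pyrvinium and 33.7, 31.9 and 34.3 TPM with ponatinib. Ponatinib was at the DMSO level of 33.1 to 40.4 TPM, and no ponatinib library came near the pyrvinium libraries (log2 difference −3.44, SE 0.051, adjusted p = 4.19e-09). Zbp1, a sensor of Z-form nucleic acids that can start cell death, was at 183, 187 and 183 TPM with pyrvinium and 30.8, 30.6 and 37.05 TPM with ponatinib. Here DMSO stood between the drugs, at 74.2 to 78.2 TPM (log2 difference −2.46, SE 0.071, adjusted p = 4.18e-08). Oasl1, a relative of the RNA-sensing oligoadenylate synthetases, had a log2 difference of −2.395.

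Chemokines and cytokines went both ways. Of 20, 6 were higher with ponatinib, 12 were higher with pyrvinium and 2 were not called (median log2 difference −0.28, with 12 further members under the level filter). Cxcl10, a chemokine induced by interferon, was at 460.0, 467 and 601 TPM with pyrvinium and 86.6, 97.4 and 96.1 TPM with ponatinib (log2 difference −2.43, SE 0.10, adjusted p = 2.24e-07), with DMSO between them at 259 to 294 TPM. Il6 was at 4.94, 5.92 and 6.102 TPM with pyrvinium and 0.119, 0.117 and 0.1201 TPM with ponatinib. Of the 6 libraries compared, only those with pyrvinium were above 1 TPM (log2 difference −2.57, SE 0.11, adjusted p = 2.47e-07), and DMSO was at 0.237 to 0.369 TPM. Ccl2, which draws monocytes, was at 208, 199 and 228 TPM with pyrvinium and 98.9, 90.1 and 114 TPM with ponatinib (log2 difference −1.06, SE 0.086, adjusted p = 8.83e-06), and both drugs were below DMSO, at 372 to 404 TPM. Cxcl5, a chemokine for neutrophils, ran the other way, at 14.7, 12.3 and 18.02 TPM with ponatinib and 1.65, 1.12 and 0.889 TPM with pyrvinium (log2 difference 2.85, SE 0.16, adjusted p = 1.21e-06), below a DMSO level of 70.2 to 79.6 TPM. The largest member on the ponatinib side, Cxcl12, is described below. Cxcl1 did not reach the minimum level for the test. The macrophage marker list summed to 16.04 to 19.18 TPM with ponatinib and 10.5 to 14.6 TPM with pyrvinium, with 8 of its 10 genes under 1 TPM and 3 at 0 in all 6 libraries.

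Of 16 genes of MHC class I and the immunoproteasome, 6 were higher with ponatinib, 5 were higher with pyrvinium and 5 were not called (median log2 difference 0.075). With the other scalings 5 to 6 were higher with ponatinib and 3 to 7 with pyrvinium. H2-M3, a class I molecule that presents formylated peptides, was at 28.04, 29.3 and 26.5 TPM with pyrvinium and 8.86, 8.75 and 8.701 TPM with ponatinib (log2 difference −1.57, SE 0.060, adjusted p = 1.53e-07). Tap1, a chain of the peptide transporter, had a difference of −0.54, while Psmb10 and Tapbp had differences of 0.85 and 0.69. Of 9 acute phase and complement genes, 6 were higher with ponatinib, 3 were higher with pyrvinium and 0 were not called (median log2 difference 1.06, with 5 further members under the level filter). C1s1, a protease of the classical pathway, was at 38.9, 38.4 and 39.4 TPM with ponatinib and 2.93, 2.29 and 2.41 TPM with pyrvinium (log2 difference 3.498, SE 0.081, adjusted p = 1.63e-08). Lcn2 and Ptx3, from the same list, had the largest differences on the pyrvinium side and are described with the top genes.

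Matrix genes were mostly higher with ponatinib. Of 23 collagens and crosslinking enzymes, 19 were higher with ponatinib, 1 was higher with pyrvinium and 3 were not called (median log2 difference 1.38, with 2 further members under the level filter). Col1a1, the main fibre collagen of fibroblasts, was at 1668, 1639 and 1741 TPM with ponatinib and 610.4, 525 and 566 TPM with pyrvinium. Every ponatinib library was above every pyrvinium library (log2 difference 1.57, SE 0.055, adjusted p = 9.44e-08), and DMSO was above both, at 2225 to 2313 TPM. Col3a1, the other main collagen of soft tissue, was at 334, 321 and 353 TPM with ponatinib and 23.01, 18.3 and 25.3 TPM with pyrvinium. The ponatinib mean was 15.1-fold the pyrvinium mean (log2 difference 3.87, SE 0.10, adjusted p = 3.19e-08), and DMSO was again highest, at 528 to 566 TPM. Col8a1 was at 35.9, 34.7 and 37.7 TPM with ponatinib and 3.499, 3.37 and 7.22 TPM with pyrvinium, with pyrvinium library 3 well above the other 2 (log2 difference 2.77, SE 0.22, adjusted p = 7.71e-06). Col16a1 and Col11a1 had log2 differences of 2.25 and 2.17. Col18a1, a collagen of basement membranes, was the 1 member higher with pyrvinium on the deposited scale (20.8 ± 0.583 TPM with ponatinib and 29.05 ± 1.13 TPM with pyrvinium, log2 difference −0.46, adjusted p = 7.38e-05). The number higher with pyrvinium was 2 after each of the other scalings and with no filter on low values.

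Of 21 matrix glycoproteins and proteoglycans, 14 were higher with ponatinib, 4 were higher with pyrvinium and 3 were not called (median log2 difference 0.72, with 5 further members under the level filter). The 14 became 9 with a mean of at least 5 TPM required. Fmod, a proteoglycan that shapes collagen fibrils, was at 6.95, 7.18 and 7.24 TPM with ponatinib and 0.0339, 0.0217 and 0.0345 TPM with pyrvinium (log2 difference 2.98, SE 0.091, adjusted p = 5.17e-08), and DMSO was at 0.437 to 0.547 TPM, so the ponatinib libraries stood above both other groups. Thbs1, thrombospondin, was at 116, 103 and 120.0 TPM with ponatinib and 17.8, 17.3 and 20.9 TPM with pyrvinium (log2 difference 2.54, SE 0.083, adjusted p = 6.84e-08). Emilin1 was at 207, 208 and 203 TPM with ponatinib and 41.6, 43.5 and 25.9 TPM with pyrvinium, with pyrvinium library 3 the lowest (log2 difference 2.48, SE 0.17, adjusted p = 3.10e-06). Aspn had a difference of 2.18, and Lamb1, a laminin chain of basement membranes, was on the pyrvinium side at −1.19. Of 12 metalloproteinases and their inhibitors, 9 were higher with ponatinib, 3 were higher with pyrvinium and 0 were not called (median log2 difference 1.13, with 5 further members under the level filter). Timp2, an inhibitor, was at 659, 681 and 679 TPM with ponatinib and 124, 117 and 108 TPM with pyrvinium (log2 difference 2.52, SE 0.051, adjusted p = 1.11e-08). Mmp14, the membrane-bound collagenase that TIMP2 binds, was at 525, 529 and 523 TPM with ponatinib and 139, 125 and 124 TPM with pyrvinium (log2 difference 2.02, SE 0.045, adjusted p = 1.49e-08). DMSO lay between the drugs for both, at 408 to 438 TPM and 342 to 358 TPM. Mmp9 and Adamts2 had differences of 2.45 and 1.63, and Mmp19 was on the pyrvinium side at −0.97.

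Contractile genes were also mostly higher with ponatinib. Of 20 contractile and cytoskeletal genes, 17 were higher with ponatinib, 2 were higher with pyrvinium and 1 was not called (median log2 difference 0.65, with 1 further member under the level filter). Acta2, the smooth muscle actin of myofibroblasts, was at 72.3, 71.2 and 76.9 TPM with ponatinib and 27.9, 24.01 and 48.01 TPM with pyrvinium. Pyrvinium library 3 was well above the other 2 but below every ponatinib library (log2 difference 1.18, SE 0.21, adjusted p = 0.00111), and DMSO was at 33.3 to 33.9 TPM. Myl9, a myosin light chain, was at 96.8, 90.96 and 96.7 TPM with ponatinib and 15.2, 12.9 and 19.7 TPM with pyrvinium (log2 difference 2.52, SE 0.13, adjusted p = 6.05e-07), with ponatinib above and pyrvinium below DMSO at 25.5 to 29.4 TPM. Vim, the intermediate filament protein of mesenchymal cells, was at 1366, 1369 and 1403 TPM with ponatinib and 391, 324 and 394 TPM with pyrvinium (log2 difference 1.902, SE 0.071, adjusted p = 1.32e-07), with DMSO highest at 2210.1 to 2305 TPM. Tpm2 and Lmod1 had differences of 1.26 and 1.28, and Zyx, a protein of focal adhesions, went the other way at −0.601. The list of smooth muscle and pericyte markers summed to 75.2 to 79.0 TPM with ponatinib and 57.8 to 66.1 TPM with pyrvinium.

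Of 19 mesenchymal transcription factors, 13 were higher with ponatinib, 3 were higher with pyrvinium and 3 were not called (median log2 difference 0.601, with 1 further member under the level filter). The 3 became 1 with a mean of at least 5 TPM required. Sox4 was at 133, 139.5 and 136 TPM with ponatinib and 13.99, 13.2 and 14.8 TPM with pyrvinium, and the ponatinib mean was 9.75-fold the pyrvinium mean (log2 difference 3.198, SE 0.051, adjusted p = 5.61e-09). DMSO was at 102 to 108 TPM, closer to ponatinib. Sox9, the factor of cartilage cells, was at 17.6, 18.3 and 19.1 TPM with ponatinib and 2.27, 2.11 and 2.26 TPM with pyrvinium (log2 difference 2.59, SE 0.072, adjusted p = 3.76e-08), with DMSO highest at 29.99 to 31.3 TPM. Prrx1 and Prrx2, homeobox factors of limb mesenchyme, had differences of 2.27 and 1.803. Snai2, a factor of mesenchymal transition, was on the pyrvinium side at −0.78. Of the 10 fibroblast markers tested, 9 were higher with ponatinib and 1 with pyrvinium. The exception was Fn1, at 525.5, 505.8 and 549.3 TPM with ponatinib and 793.2, 848.5 and 794.5 TPM with pyrvinium. Its DMSO level was 761.9 to 798.6 TPM. Lum and Thy1, on the same list of 12, were under 1 TPM in all 6 libraries. Pdgfrb, the receptor chain that marks fibroblasts and pericytes, was at 40.8, 42.1 and 42.3 TPM with ponatinib and 31.7, 29.4 and 27.1 TPM with pyrvinium (log2 difference 0.49, SE 0.062, adjusted p = 0.000124). Pdgfra was low throughout, at 1.77, 2.24 and 2.12 TPM with ponatinib and 0.734, 0.559 and 0.675 TPM with pyrvinium (log2 difference 0.88, SE 0.11, adjusted p = 0.000151).

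**Figure D5:**
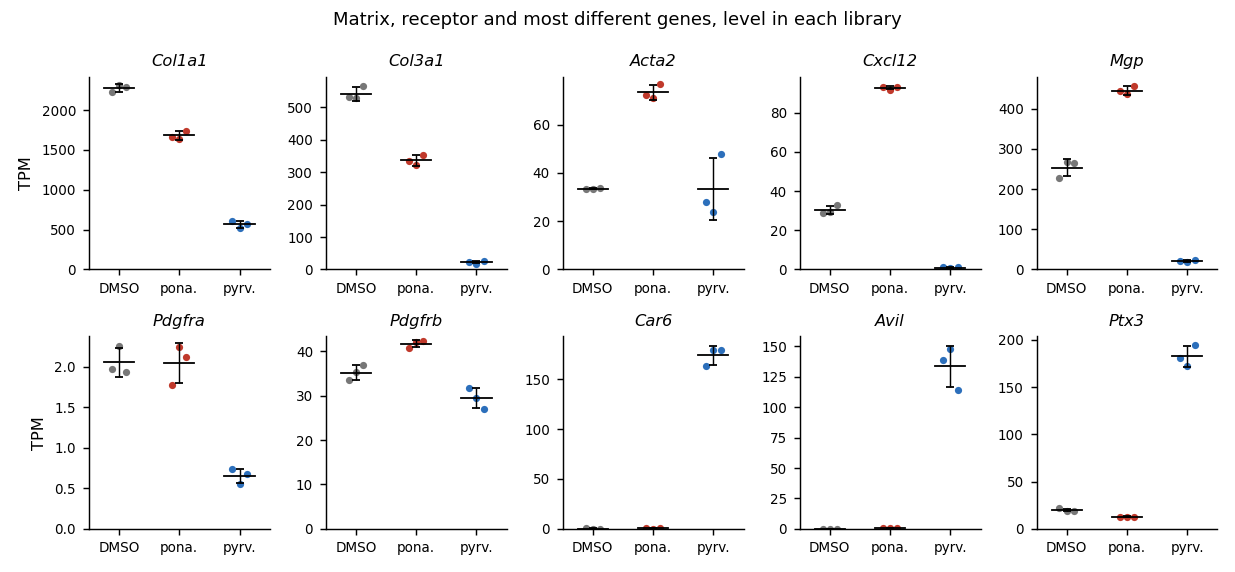
Levels in TPM of 10 genes in each of 3 libraries per group (points), with the group mean and SD (bars), for DMSO, ponatinib and pyrvinium. The first 7 genes are higher with ponatinib than with pyrvinium, and Car6, Avil and Ptx3 are highest in the pyrvinium libraries, with Car6 under 1 TPM elsewhere.

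Cell cycle genes differed by smaller amounts. Of 30 S phase genes, 22 were higher with ponatinib, 3 were higher with pyrvinium and 5 were not called (median log2 difference 0.44). Under the other scalings 18 to 21 were higher with ponatinib and 5 to 6 with pyrvinium, and the count of 3 was 5 without pyrvinium library 3. Pcna, the sliding clamp of DNA polymerase, was at 896, 897 and 904 TPM with ponatinib and 481, 478 and 433 TPM with pyrvinium (log2 difference 0.95, SE 0.044, adjusted p = 3.79e-07), and ponatinib was just below DMSO, at 918 to 975 TPM. Uhrf1, which keeps DNA methylation through replication, was at 185, 187 and 185 TPM with ponatinib and 99.8, 102 and 92.5 TPM with pyrvinium (log2 difference 0.91, SE 0.043, adjusted p = 4.44e-07). Ccne1 and Ccne2, the E cyclins, had differences of 0.802 and 0.79. The E2F letters TTTNGCGC stood on either strand in 7 of 23 promoters of the S phase list, or 30.4%, against 2.64% over the genes tested. Of 30 mitosis genes, 20 were higher with ponatinib, 5 were higher with pyrvinium and 5 were not called (median log2 difference 0.203). The split depended on the scaling, with 8 to 11 higher with ponatinib and 8 to 9 with pyrvinium after the other scalings, and the 5 became 3 without ponatinib library 1, ponatinib library 2 or pyrvinium library 1. For 29 of the 30 the DMSO mean lay above both drugs, against 2857 of the 12073 genes tested. The letters TTTGAA or TTCGAA on either strand, the CHR element of late cell cycle genes, stood in 19 of 25 promoters of the list, or 76.0%, against 13.5% over the genes tested. Mki67, the proliferation marker, was at 69.8, 70.3 and 75.2 TPM with ponatinib and 43.7, 42.4 and 38.96 TPM with pyrvinium (log2 difference 0.77, SE 0.055, adjusted p = 4.32e-06), with DMSO at 99.4 to 102 TPM. Ccnb2, Kif11 and Kif23 had differences of 0.501, 0.49 and 0.49, and Bub1, of the spindle checkpoint, was at −0.44.

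Of 14 D cyclins, their kinases and CDK inhibitors, 10 were higher with ponatinib, 1 was higher with pyrvinium and 3 were not called (median log2 difference 0.61). After the other scalings 9 to 10 were higher with ponatinib and 3 to 4 with pyrvinium, and without pyrvinium library 3 the number higher with pyrvinium was 2. Cdkn1a, the inhibitor p21, is counted with the p53 targets below and not among these 14. It was at 148, 150.0 and 152 TPM with ponatinib and 89.2, 95.1 and 70.8 TPM with pyrvinium (log2 difference 0.82, SE 0.096, adjusted p = 8.31e-05), with pyrvinium below the DMSO level of 96.8 to 106 TPM. Cdkn2c, an inhibitor of CDK4 and CDK6, was at 162, 162 and 156 TPM with ponatinib and 45.1, 38.3 and 35.4 TPM with pyrvinium (log2 difference 1.99, SE 0.080, adjusted p = 1.90e-07). Cdkn1c and Cdkn2b had differences of 1.98 and 1.202. Ccnd1 was low with both drugs, at 2.502, 3.19 and 2.97 TPM with ponatinib and 1.17, 1.66 and 2.05 TPM with pyrvinium, against 8.602 to 8.67 TPM with DMSO. Its difference (log2 difference 0.58, adjusted p = 0.00648) was not called after quantile normalization (adjusted p = 0.165). Ccnd2, another D cyclin, was at 49.6, 53.4 and 43.5 TPM with pyrvinium and 19.3, 18.7 and 20.8 TPM with ponatinib (log2 difference −1.27, SE 0.080, adjusted p = 2.02e-06). Of 20 p53 targets and growth arrest genes, 8 were higher with ponatinib, 6 were higher with pyrvinium and 6 were not called (median log2 difference −0.037). With the other scalings 7 were higher with ponatinib and 8 to 10 with pyrvinium. Gadd45a, also a target of ATF4, was at 252, 238 and 294 TPM with pyrvinium and 44.1, 45.2 and 44.5 TPM with ponatinib (log2 difference −2.52, SE 0.072, adjusted p = 3.96e-08), and Pmaip1, the death protein NOXA, was at 38.1, 40.1 and 39.97 TPM with pyrvinium and 12.7, 12.7 and 12.4 TPM with ponatinib (log2 difference −1.57, SE 0.051, adjusted p = 6.51e-08). Ponatinib was within a few TPM of DMSO for Pmaip1, at 8.96 to 9.705 TPM. Sesn1, an inhibitor of mTOR signalling, was at 45.4, 47.1 and 44.6 TPM with ponatinib and 13.5, 13.5 and 14.1 TPM with pyrvinium (log2 difference 1.66, SE 0.050, adjusted p = 4.88e-08), and Trp53inp1 had a difference of 1.44.

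Genes of growth factor signalling went both ways. Receptors and kinases reported as ponatinib targets were on both sides: of 18, 9 were higher with ponatinib, 6 were higher with pyrvinium and 3 were not called (median log2 difference 0.24, with 9 further members under the level filter). That split was near the shares over all genes tested, 46.5% and 29.1%, so it does not set these kinases apart. Fgfr1 was at 85.8, 88.2 and 91.1 TPM with ponatinib and 65.2, 60.4 and 60.5 TPM with pyrvinium (log2 difference 0.504, SE 0.046, adjusted p = 1.81e-05), and Fgfr2 at 37.3, 36.6 and 39.1 TPM with ponatinib and 8.44, 8.56 and 8.96 TPM with pyrvinium (log2 difference 2.001, SE 0.056, adjusted p = 3.76e-08), with DMSO between them for Fgfr2 at 17.03 to 19.7 TPM. Ddr1, a collagen receptor kinase, had a difference of 1.21, while Fyn, a SRC family kinase, and Epha2 had differences of −1.395 and −1.0. Of 13 feedback genes of ERK signalling, 4 were higher with ponatinib, 6 were higher with pyrvinium and 3 were not called (median log2 difference −0.201, with 2 further members under the level filter). Etv4, a transcription factor that follows ERK activity, was at 9.35, 10.4 and 13.3 TPM with pyrvinium and 1.71, 1.14 and 2.67 TPM with ponatinib (log2 difference −2.11, SE 0.20, adjusted p = 2.40e-05). Its relative Etv5 was at 8.75, 10.04 and 9.67 TPM with pyrvinium and 1.32, 1.19 and 1.55 TPM with ponatinib (log2 difference −2.16, SE 0.097, adjusted p = 3.46e-07). For both, ponatinib was below the DMSO levels of 4.27 to 5.06 TPM and 3.05 to 3.39 TPM, and pyrvinium was above them. Dusp6, the phosphatase of ERK, was at 2.87, 3.56 and 4.88 TPM with pyrvinium and 1.596, 1.197 and 1.61 TPM with ponatinib (log2 difference −0.93, SE 0.16, adjusted p = 0.000876), and Dusp4 had a difference of −1.37. Spry1, a feedback inhibitor, went the other way, at 2.91, 2.63 and 2.98 TPM with ponatinib and 0.427, 0.128 and 0.492 TPM with pyrvinium (log2 difference 1.52, SE 0.13, adjusted p = 1.54e-05). Spry4 did not reach the minimum level.

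Of 14 immediate early factors, 4 were higher with ponatinib, 8 were higher with pyrvinium and 2 were not called (median log2 difference −0.85, with 2 further members under the level filter). The letters TGANTCA on either strand, the AP-1 element, stood in 0 of the 10 promoters of the list in the RefSeq table, against 4.53% over the genes tested. Egr1 was at 157, 135 and 374 TPM with pyrvinium and 31.7, 27.5 and 35.8 TPM with ponatinib. Pyrvinium library 3 stood far above the other 2, and all 3 stood above ponatinib (log2 difference −2.63, SE 0.33, adjusted p = 0.000133) and above DMSO, at 69.2 to 79.4 TPM. Myc, the growth factor-induced transcription factor, was at 46.3, 50.2 and 66.6 TPM with pyrvinium and 11.4, 10.1 and 11.5 TPM with ponatinib (log2 difference −2.19, SE 0.13, adjusted p = 1.25e-06), with DMSO between the drugs at 28.7 to 33.1 TPM. Klf10, a factor induced by TGF-beta, was at 49.5, 47.1 and 51.1 TPM with ponatinib and 5.401, 4.85 and 3.695 TPM with pyrvinium, with DMSO above both at 72.7 to 75.01 TPM (log2 difference 3.16, SE 0.11, adjusted p = 9.44e-08). Of 15 YAP and TAZ targets, 4 were higher with ponatinib, 4 were higher with pyrvinium and 7 were not called (median log2 difference −0.04). Under the other scalings 2 were higher with ponatinib and 8 to 9 with pyrvinium, and without pyrvinium library 3 the number higher with pyrvinium was 7. Ccn1, a matrix-associated signalling protein, was at 336, 287 and 646 TPM with pyrvinium and 46.2, 37.9 and 48.6 TPM with ponatinib, with library 3 again the highest (log2 difference −3.14, SE 0.27, adjusted p = 1.14e-05). Ankrd1 was at 49.9, 48.9 and 50.6 TPM with pyrvinium and 6.58, 6.34 and 7.09 TPM with ponatinib (log2 difference −2.73, SE 0.059, adjusted p = 1.38e-08), F3 had a difference of −2.19, and Arhgef17 one of 0.99.

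Wnt targets were mostly lower with pyrvinium than with ponatinib. Of 13 Wnt feedback and target genes, 12 were higher with ponatinib, 1 was higher with pyrvinium and 0 were not called (median log2 difference 0.77, with 12 further members under the level filter). With a mean of at least 5 TPM required, 7 members were called higher with ponatinib, and with no filter on low values 2 were called higher with pyrvinium. Axin2, the standard feedback target of beta-catenin, was at 4.26, 3.82 and 5.45 TPM with ponatinib and 0.04903, 0.04698 and 0.0249 TPM with pyrvinium. It was close to 0 in all 3 pyrvinium libraries and its DMSO levels lay above both drugs, at 11.7 to 12.8 TPM (log2 difference 2.39, SE 0.13, adjusted p = 9.40e-07). Ccn5, known as a Wnt-induced secreted protein, was at 15.9, 13.3 and 15.1 TPM with ponatinib and 1.12, 0.583 and 0.794 TPM with pyrvinium (log2 difference 3.11, SE 0.13, adjusted p = 2.03e-07). The receptors Fzd1 and Fzd2 were also higher with ponatinib, with differences of 1.84 and 1.67. Csnk1a1, the kinase CK1 alpha that has been reported as a target of pyrvinium, was the 1 member on the other side (149 ± 2.12 TPM with ponatinib and 173 ± 8.34 TPM with pyrvinium, log2 difference −0.21, adjusted p = 0.00197).

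Genes of sugar use and hypoxia had higher levels with ponatinib than with pyrvinium for the most part. Of 28, 19 were higher with ponatinib, 4 were higher with pyrvinium and 5 were not called (median log2 difference 0.48, with 1 further member under the level filter). For 24 of the 28 DMSO lay above both drug means, against 2857 of the 12073 genes tested. Pdk1, a kinase that inhibits pyruvate dehydrogenase, was at 39.6, 29.4 and 39.2 TPM with ponatinib and 20.4, 18.8 and 15.1 TPM with pyrvinium (log2 difference 0.95, SE 0.14, adjusted p = 0.000294), with DMSO at 92.5 to 99.2 TPM. Slc16a3, a lactate exporter, was at 51.8, 28.6 and 51.9 TPM with ponatinib and 17.2, 15.3 and 13.4 TPM with pyrvinium (log2 difference 1.43, SE 0.21, adjusted p = 0.000378). Ponatinib library 2 was lower than the other 2 but above every pyrvinium library, and DMSO was at 255 to 256 TPM. Car9, a carbonic anhydrase of hypoxic cells, had a difference of 1.49. The 4 exceptions included Ndrg1 at 276, 266 and 281 TPM with pyrvinium and 81.1, 69.99 and 83.4 TPM with ponatinib (log2 difference −1.802, SE 0.065, adjusted p = 1.12e-07), Vegfa at 113, 106 and 102 TPM with pyrvinium and 46.9, 45.9 and 50.5 TPM with ponatinib (log2 difference −1.15, SE 0.054, adjusted p = 4.41e-07) and Hk2 (−1.61). For these 3, ponatinib was below and pyrvinium above DMSO. Txnip, which limits glucose uptake and follows glucose, was at 55.9, 58.5 and 57.9 TPM with ponatinib and 16.8, 14.6 and 13.95 TPM with pyrvinium (log2 difference 1.86, SE 0.071, adjusted p = 1.47e-07), and DMSO was between the drugs at 44.2 to 45.5 TPM. Its relative Arrdc4 went the other way (−0.53), and Mlx, the partner of the glucose-sensing factors, had a difference of 0.25. The letters ACGTGC on either strand, a core of the hypoxia response element, stood in 13 of 28 promoters of this list, or 46.4%, and in 8.38% over the genes tested.

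Of 18 NRF2 antioxidant genes, 11 were higher with ponatinib, 5 were higher with pyrvinium and 2 were not called (median log2 difference 0.28). The letters TGANNNNGC on either strand, the core of the antioxidant response element, stood in 8 of 14 promoters of the list, or 57.1%, against 43.1% over the genes tested. Gstm1, a glutathione transferase with close relatives, was at 375, 393 and 371 TPM with ponatinib and 59.8, 50.1 and 45.5 TPM with pyrvinium (log2 difference 2.86, SE 0.087, adjusted p = 5.16e-08), with DMSO at 202 to 213 TPM. Gsta4 and Nqo1 had differences of 2.21 and 1.03. Hmox1, which breaks down haem, was at 310.0, 307 and 309.9 TPM with pyrvinium and 161, 156 and 152 TPM with ponatinib (log2 difference −0.98, SE 0.033, adjusted p = 7.68e-08), and DMSO was between at 198 to 206 TPM. Metallothioneins, which bind zinc and copper, were on the ponatinib side: Mt1 was at 946, 939 and 913 TPM with ponatinib and 211, 221 and 196 TPM with pyrvinium (log2 difference 2.15, SE 0.046, adjusted p = 1.38e-08), with DMSO at 627 to 663 TPM, and Mt2 had a difference of 1.79. Of the 5 genes of the zinc list, 3 were higher with ponatinib, 1 was higher with pyrvinium and 1 was not called (median log2 difference 1.13). After quantile normalization 2 were called higher with pyrvinium. The letters TGCNCNC on either strand, a loose form of the metal response element, stood in 5 of 5 promoters of the list, against 60.4% over the genes tested. Slc30a1, the zinc exporter, and Slc39a10, a zinc importer, had differences of 1.13 and −1.002, so the exporter went with the metallothioneins and the importer against them.

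Of 30 genes of lysosomes and autophagy, 23 were higher with ponatinib, 5 were higher with pyrvinium and 2 were not called (median log2 difference 0.47). For 25 of the 30, DMSO lay below both drugs, against 4255 of the 12073 genes tested. Ctsa, a lysosomal protease, was at 405, 401 and 401 TPM with ponatinib and 186, 179 and 186 TPM with pyrvinium (log2 difference 1.12, SE 0.031, adjusted p = 3.43e-08), with DMSO at 139 to 153 TPM. Gpnmb, a membrane protein that marks lysosomal stress, was at 79.6, 83.6 and 80.8 TPM with ponatinib and 36.6, 36.2 and 27.7 TPM with pyrvinium (log2 difference 1.26, SE 0.098, adjusted p = 6.98e-06), against 6.83 to 8.82 TPM with DMSO, so both drugs stood above DMSO. Gusb and Map1lc3b had differences of 1.497 and 1.296. Sqstm1, the autophagy receptor p62, was on the pyrvinium side, at 985, 971 and 928 TPM with pyrvinium and 579.6, 576 and 571 TPM with ponatinib (log2 difference −0.74, SE 0.032, adjusted p = 2.87e-07).

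Of 17 genes of the circadian clock, 9 were higher with ponatinib, 7 were higher with pyrvinium and 1 was not called (median log2 difference 0.43, with 1 further member under the level filter). Dbp, an output factor of the clock, was at 56.9, 54.4 and 53.4 TPM with ponatinib and 8.09, 6.75 and 5.45 TPM with pyrvinium (log2 difference 2.86, SE 0.11, adjusted p = 1.85e-07), with DMSO at 14.2 to 16.1 TPM. Ciart, a repressor within the clock, was at 63.4, 66.2 and 52.7 TPM with pyrvinium and 13.01, 13.9 and 12.6 TPM with ponatinib, and here ponatinib was slightly above DMSO, at 10.5 to 11.8 TPM (log2 difference −2.12, SE 0.088, adjusted p = 2.25e-07). Nfil3 and Cry1 had differences of −1.24 and −1.21. The E-box CACGTG stood in 5 of 16 promoters of the clock list, or 31.2%, and in 6 of 21 of the ribosome biogenesis list, or 28.6%, against 10.5% over the genes tested. Of 30 nuclear speckle genes, 13 were higher with ponatinib, 8 were higher with pyrvinium and 9 were not called (median log2 difference 0.067). After the other scalings 12 to 13 were higher with ponatinib and 10 to 12 with pyrvinium. Son, the speckle protein that other libraries of the study alter, was at 86.3, 89.7 and 93.1 TPM with ponatinib and 73.1, 72.9 and 61.9 TPM with pyrvinium (log2 difference 0.37, SE 0.068, adjusted p = 0.00123), and DMSO was at 97.4 to 99.9 TPM. Srrm2, the other large scaffold of speckles, was at 149, 154 and 124 TPM with pyrvinium and 105, 110.3 and 112 TPM with ponatinib (log2 difference −0.38, SE 0.077, adjusted p = 0.00223). For both genes pyrvinium library 3 was the lowest of its group. The splicing factors Srsf3, Srsf6 and Srsf1 had differences of 1.097, 0.84 and 0.79, and the kinase Clk3 had one of −0.75.

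Among called genes that the naming rule could rank (limits given below), those of largest difference on the ponatinib side were led by Cxcl12 (chromosome 6, 117168535 to 117181367, GRCm38). Cxcl12 is a chemokine that stromal cells make to hold blood stem cells and lymphocytes. It was at 92.9, 91.6 and 93.2 TPM with ponatinib and 1.03, 0.5395 and 1.24 TPM with pyrvinium, a difference of 98.6-fold in the means (log2 difference 5.61, SE 0.13, adjusted p = 1.60e-08). Ponatinib was above DMSO, at 28.9 to 32.8 TPM, and pyrvinium was close to 0. Nrep, a small protein of regenerating nerve and of wounds, was at 106, 105 and 107 TPM with ponatinib and 1.58, 0.984 and 1.06 TPM with pyrvinium (log2 difference 5.604, SE 0.10, adjusted p = 8.45e-09). Mgp (chromosome 6, 136872435 to 136875823), matrix Gla protein, an inhibitor of calcification, was at 443, 436 and 457 TPM with ponatinib and 20.6, 18.1 and 24.1 TPM with pyrvinium (log2 difference 4.35, SE 0.087, adjusted p = 1.11e-08). S100a4, a calcium-binding protein often used to mark fibroblasts, was at 1327, 1237 and 1298 TPM with ponatinib and 54.6, 49.2 and 54.5 TPM with pyrvinium (log2 difference 4.58, SE 0.049, adjusted p = 1.29e-09). For Nrep and S100a4 the ponatinib level was of the order of the DMSO level, at 79.6 to 84.1 TPM and 1591 to 1710.2 TPM, and the pyrvinium level lay far below. Gas1, a growth arrest protein of the membrane, was at 46.8, 48.8 and 51.1 TPM with ponatinib and 1.47, 0.907 and 0.9802 TPM with pyrvinium (log2 difference 4.57, SE 0.11, adjusted p = 1.65e-08). Angptl4, a secreted inhibitor of lipoprotein lipase, was at 37.1, 36.5 and 36.7 TPM with ponatinib and 1.47, 1.403 and 1.44 TPM with pyrvinium (log2 difference 3.95, SE 0.063, adjusted p = 5.61e-09). Dmpk, Fam180a, Angpt1 and Mmp15 made up the 10, with log2 differences of 4.902, 4.73, 4.05 and 3.95.

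On the pyrvinium side Car6 (chromosome 4, 150187015 to 150201332, GRCm38), a secreted carbonic anhydrase known from saliva, had the largest difference among the genes so ranked. It was at 163, 179.5 and 179.9 TPM with pyrvinium and 0.746, 0.238 and 0.534 TPM with ponatinib. The ponatinib libraries were at the low level of DMSO, 0.0897 to 0.362 TPM, and the pyrvinium libraries were all far above both (log2 difference −6.87, SE 0.12, adjusted p = 8.08e-09). Avil, advillin, an actin-binding protein of sensory neurons, was at 139, 148 and 114 TPM with pyrvinium and 0.879, 0.798 and 0.729 TPM with ponatinib (log2 difference −6.21, SE 0.097, adjusted p = 5.61e-09), with DMSO at 0.126 to 0.169 TPM. Car6 and Avil lead a list of 7 genes that was drawn up from earlier results of these libraries. Of these, 4 passed the level filter, and that all 4 were higher with pyrvinium is no evidence of its own. With no filter on low values 2 members of the list were called higher with ponatinib. The carbonic anhydrases Car12 and Car13 on that list had differences of −1.27 and −0.28. The neural marker list summed to 52.2 to 54.8 TPM with pyrvinium and 80.4 to 84.4 TPM with ponatinib, with 5 of its 8 genes under 1 TPM and 3 at 0 in all 6 libraries, and its part in the levels of Avil was not tested.

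Lcn2, lipocalin 2, an iron-carrier-binding protein of acute inflammation, was at 95.3, 108 and 79.9 TPM with pyrvinium and 2.53, 3.67 and 3.61 TPM with ponatinib (log2 difference −4.48, SE 0.14, adjusted p = 5.16e-08), with DMSO under 1 TPM. Ptx3, a pentraxin of innate immunity, was at 181, 172 and 195 TPM with pyrvinium and 12.2, 12.9 and 12.9 TPM with ponatinib (log2 difference −3.75, SE 0.054, adjusted p = 4.19e-09), and ponatinib was below DMSO, at 19.02 to 21.6 TPM. Steap1, a membrane protein of the STEAP family, was at 161, 158 and 159 TPM with pyrvinium and 8.504, 9.22 and 8.497 TPM with ponatinib, with little spread in either group (log2 difference −4.04, SE 0.047, adjusted p = 1.80e-09). Acox2, a peroxisomal oxidase of bile acid precursors, was at 28.4, 29.03 and 20.5 TPM with pyrvinium and 0.932, 1.13 and 0.869 TPM with ponatinib (log2 difference −3.76, SE 0.14, adjusted p = 1.13e-07). Sh2d6 and Mamdc2 had differences of −5.104 and −3.57. Snord15b, a small nucleolar RNA gene that lies inside a ribosomal protein gene, was listed at 0 in all 3 ponatinib libraries and at 12.1, 28.2 and 21.9 TPM with pyrvinium. Its short length makes a TPM value coarse, and no fold is given against libraries listed at 0.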

How the data were processed

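Poly(A) RNA libraries were made with a stranded TruSeq mRNA kit, per the labels' protocols. The authors deposited the 15 drug and DMSO libraries as a table of TPM, the unit named in the table's title. The submitters' processing notes name the build mm10 and Trimmomatic, Trim Galore, HISAT2, Salmon and Cufflinks; the sources used here do not give their versions or say which of them made the TPM values. TPM keep no read counts, so the depth per library is unknown, and summed TPM ran from 952123 to 985231. A second table, of other libraries, was not used here.

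Levels were taken as log2(TPM + 1), with a pseudocount of 1, and genes with a mean of at least 1 TPM over the 6 libraries were tested. Ponatinib and pyrvinium were compared with limma 3.58.1 in R 4.3.3 (lmFit and eBayes with a mean trend, two-sided, Benjamini-Hochberg adjusted over all 12073 genes, no block). Coordinates and transcript lengths came from the GENCODE annotation of GRCm38, matched by symbol, and promoters from RefSeq. Some genes are not reported here.

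Named genes are the 10 of largest difference in each direction among called genes with a mean of at least 5 TPM in the higher group and no overlap of libraries, up to 4 called members of largest difference per list with the largest of the rarer direction, and a fixed set. Predicted genes, accession-like names, pseudogenes, copies of ribosomal protein genes and entries such as Rn45s were left out of the ranking of the 10. The comparison, the gene lists and the fixed set were chosen with earlier results of these data known. Alternatives were 2 other pseudocounts, 2 other filters, 3 scalings, removal of a length trend, a fit to all 15 libraries, array weights, no mean trend, a replicate block and leaving out each library.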

Additional observations from a re-analysis of the deposited data

How the results depend on the processing

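The number of genes called stayed within 1.5 times of 9126 under all 18 alternatives, as did the counts by direction and the number of at least 2-fold differences. The 533 genes at least 2-fold higher with pyrvinium were 811 after quantile normalization. It was 8404 to 9602 when 1 library was left out, with 5190 to 5626 genes higher with ponatinib, 3153 to 3976 higher with pyrvinium and 1666 to 1862 at least 2-fold different. The share of calls higher with ponatinib was 50.2% after median-ratio or TMM scaling, 48.7% after quantile normalization and 50.1% after removal of the length trend. Of the 195 genes chosen by the naming rule, 193 kept their direction and call in every alternative that could be fitted. Ubtf turned sign after median-ratio scaling (−0.046), TMM scaling (−0.047), quantile normalization (−0.023) and removal of the length trend (−0.065), and was not called under 6 further alternatives. Ccnd1 was not called after quantile normalization (0.27). No strong pairing by replicate number was seen: the deviations of same-numbered libraries correlated at 0.0083, 0.14 and 0.027, and not every library correlated best with its own number. With 3 libraries per group, these values cannot show whether same-numbered libraries shared a culture or batch. With a replicate block 8882 genes were called. The depth behind the TPM values is unknown, so no counting error could be given, and low genes are the least certain because the pseudocount compresses them: 2189 genes were at least 2-fold different with a pseudocount of 0.1. Each drug was given at 1 dose and 1 time in cells of 1 kind.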
